A study of Mus musculus with 3 samples.

Results

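The genes described here encode the initiation and elongation factors of mRNA translation. They were taken from the curated RefSeq annotation of mouse GRCm38 as every gene whose symbol begins with Eif1 to Eif6, Eef1 or Eef2, without pseudogenes, which gave 72 genes among 26180 curated genes. Of these, 71 are among the 21000 protein-coding genes, and 53 were listed by symbol as factors proper. The other 19 are kinases, binding proteins, methyltransferases and relatives, one of which, Eif2c5, is non-coding and entered by its symbol alone. A peak was assigned to a gene when its nearer edge lay within 1 kb of a transcription start site (TSS) of that gene, and 36 of the 10069 peaks were assigned in this way.

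Initiation factors of the eIF families place the initiator tRNA and the small ribosomal subunit on an mRNA, find the start codon and join the large subunit. Elongation factors then deliver charged tRNAs and move the ribosome along the message. All cells need these proteins, and kinases and binding proteins set how much of them is active, so that growth signals and stress change the rate of protein synthesis. NR2F2, also named COUP-TFII, is an orphan nuclear receptor known in the fetal testis from interstitial cells, and nuclear receptors of its kind bind copies of AGGTCA.

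NR2F2 binding was measured by ChIP-seq in CD-1 mice, in embryonic testes (E14.5) that were freed of the mesonephros and pooled. There were 2 ChIP libraries from independent experiments and 1 input library of sheared chromatin, with no knockout or control antibody among them, so no comparison of genotypes or treatments was possible. Whole testes hold somatic and germ cells together, no RNA was measured in these libraries, and strong binding in few cells cannot be told apart from weak binding in many. Across all peaks the reads counted came to 73251 in the input, 426784 in ChIP replicate 1 and 364261 in ChIP replicate 2. Each peak was 300 bp wide. Because the ChIP libraries hold more counted reads than the input, a raw ratio of ChIP to input counts has a meaning only beside the same ratio at other peaks.

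Letters from the peaks are shown first, all read from GRCm38. The following stretch is the only place in the 36 peaks where 2 copies of AGGTCA stood in the same direction with 1 base between them and at most 1 mismatch in all (capitals mark both copies). G in the first place of a copy was not counted as a mismatch. The peak that holds this stretch was also the only one of the 36 called above the typical peak by edgeR, in the test described further on. It was not called with the size factors of DESeq2 or by DESeq2 itself. A link between these letters and the call was not tested.
Eef1b2 (chr1:63177043-63177071, minus strand): ccggctagAGGTTAaAGGTCAaggtccgt

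Apart from Eef1b2, 6 peaks held AGGTCA itself on either strand. They are shown in 30-base windows with the motif in capitals, to let the bases around it be compared.
Eif3m (chr2:105016850-105016879, plus strand): gcgccgagacccAGGTCAggagagcgcgct
Eif3d (chr15:77971232-77971261, minus strand): cccggactaggcAGGTCAtttgccaccctg
Eif2b2 (chr12:85219471-85219500, minus strand): ccgggccgagagAGGTCAacttccgctcgg
Eif4h (chr5:134639734-134639763, minus strand): actaggggttcaAGGTCAtcctcagctaca
Eif5a2 (chr3:28781009-28781038, plus strand): tagtcgtccccaAGGTCAactgggcgccga
Eif2s3x (chrX:94212755-94212784, minus strand): gtccgagcagtcAGGTCAgtgctgcattcg

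A variant with G in the first place, GGGTCA, was found in 9 peaks. These windows come from 5 of them (capitals mark GGGTCA), chosen because they lie at named factors and cover a wide range of counts.
Eif4a1 (chr11:69672087-69672116, plus strand): gtaaccacactgGGGTCAgcggcggccatg
Eif4ebp1 (chr8:27260553-27260582, plus strand): aggcgctggccgGGGTCAcgggcgacctcg
Eif4e (chr3:138526147-138526176, plus strand): tcaaaagacccaGGGTCAagaagcaagatt
Eif2b4 (chr5:31192797-31192826, plus strand): gtgggaggaaaaGGGTCAgtcacccttctg
Eef1g (chr19:8967239-8967268, plus strand): ctccggtgattaGGGTCAccctatccaccg

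The core letters of ETS factor sites, CCGGAAG, were found in 13 peaks. These windows show 6 of them (capitals mark CCGGAAG). The Eif1 peak holds a second match that is not shown.
Eef1b2 (chr1:63176821-63176849, plus strand): ctgcagttccgCCGGAAGtagccgaggcc
Eif1 (chr11:100320306-100320334, plus strand): tctgagggtgcCCGGAAGaaacgggtggg
Eif3m (chr2:105017065-105017093, minus strand): ctgtggctgacCCGGAAGcggttgtgcgt
Eif4e2 (chr1:87213905-87213933, plus strand): tcgccagccaaCCGGAAGtagccgggccc
Eif3e (chr15:43282494-43282522, minus strand): acacgtgcgagCCGGAAGccggcttgggc
Eif3j1 (chr2:122028201-122028229, plus strand): tcgggtgatcaCCGGAAGggagaaccagg

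Finally, 2 longer promoter stretches are given, read along the strand of the gene. The peak of Eif3a had high counts and none of the letters shown above, whereas Eif2s3x held the only AGGTCA (capitals) that lay inside the central 100 bp of a peak.
Eif3a (chr19:60790728-60791027, minus strand): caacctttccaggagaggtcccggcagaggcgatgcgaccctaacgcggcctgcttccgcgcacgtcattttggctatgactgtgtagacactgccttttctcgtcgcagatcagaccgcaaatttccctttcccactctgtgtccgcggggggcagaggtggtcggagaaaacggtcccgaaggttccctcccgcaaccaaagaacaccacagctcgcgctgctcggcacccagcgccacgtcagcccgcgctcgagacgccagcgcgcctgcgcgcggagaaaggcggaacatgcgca
Eif2s3x (chrX:94212652-94212930, minus strand): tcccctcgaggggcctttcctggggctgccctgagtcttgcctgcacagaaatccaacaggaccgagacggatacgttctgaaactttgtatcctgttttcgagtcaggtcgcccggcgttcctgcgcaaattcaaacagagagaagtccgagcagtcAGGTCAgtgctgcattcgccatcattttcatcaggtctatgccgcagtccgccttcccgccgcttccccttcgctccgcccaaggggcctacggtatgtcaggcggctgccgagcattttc

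Peaks lay at 36 of the 72 translation factor genes (50%), or 36 of the 71 protein-coding ones (50.7%), beside 5894 of 21000 protein-coding genes (28.1%). Among factors proper the share was 28 of 53 (52.8%). The annotation of a single peak list allows no replicate of these shares, and genes are not replicates, so the difference was not tested. Each gene with a peak had exactly 1. At a limit of 500 bp the count was 33 (45.8%) against 26.4% of protein-coding genes, and at 5 kb it was 36 (50%) against 30.7%. The higher share of the translation factor genes was therefore present at each of these distances.

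The distance limit did not cut through a run of peaks. The members just inside it were Eif5 at 651 bp, Eef1akmt3 at 543 bp and Eif3b at 520 bp from the TSS, and the nearest outside it were Eif4ebp3 at 6001 bp and Eif6 at 7615 bp. No gene of the set had its nearest peak between 1 kb and 5 kb. For 35 genes without a peak the median distance to one was 39852 bp, with 20 genes at 5 to 50 kb and 15 beyond, up to 584809 bp for Eif3f. The remaining gene, Eif2s3y, lies on the Y chromosome, which held no peak.

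The counts by role that follow come from small groups, have no test and are to be read against the 28.1% of protein-coding genes with a peak. The eIF3 complex, a scaffold of many subunits on the small ribosomal subunit, had peaks at 8 of its 14 genes. These were Eif3a, Eif3b, Eif3c, Eif3d, Eif3e, Eif3j1, Eif3l and Eif3m, while Eif3f, Eif3g, Eif3h, Eif3i, Eif3j2 and Eif3k had none. Eif3j1 and Eif3j2 encode near-identical proteins, and how well reads map to each promoter was not tested. The eIF4 group binds the mRNA cap and unwinds the leader, and 8 of its 12 genes had a peak. They encode the cap-binding proteins Eif4e and Eif4e2, the scaffolds Eif4g1, Eif4g2 and Eif4g3, the helicase Eif4a1 and its helpers Eif4b and Eif4h. Eif4a2, Eif4a3, Eif4e3 and Eif4e1b were without one.

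Of the 4 genes for eIF2, the complex that carries the initiator tRNA, only Eif2s3x had a peak, and Eif2s1, Eif2s2 and Eif2s3y did not. Its exchange factor eIF2B, which reloads eIF2 with GTP, had peaks at Eif2b2 and Eif2b4 among 5 genes. Both Eif2a and Eif2d, which can bring tRNA to the ribosome without eIF2, had one. Eif1 and Eif1a, of the 4 genes of factors that guard the choice of start codon, were bound, in contrast to Eif1b and Eif1ax. Eif5, which makes eIF2 split its GTP, and Eif5a2 had peaks among 5 genes in a group that also holds Eif5a, Eif5b and Eif6.

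Of the 7 genes grouped by symbol as elongation factors, 3 had a peak (42.9%), beside 28.1% of protein-coding genes. Eef1b2, Eef1d and Eef1g encode the parts of the exchange factor that reloads eEF1A, and all of them had a peak. Peaks were not found within 1 kb of Eef1a1 and Eef1a2, which encode the tRNA carrier itself, of Eef2, which encodes the translocase, or of Eef1e1. The nearest peaks to Eef1a1 and Eef2 were 33307 and 47227 bp away. The peaks of Eef1b2 and Eef1d also lie within 1 kb of a TSS of another protein-coding gene, so they cannot be given to these genes alone.

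Among regulators, Eef2k, the kinase that switches off eEF2, and Eif2ak1, the eIF2 kinase activated by lack of heme, had a peak, whereas the eIF2 kinases Eif2ak2, Eif2ak3 and Eif2ak4 did not. Eif4ebp1, which holds back eIF4E when mTOR is inactive, was the only bound gene among 4 of that class, with Eif4ebp2, Eif4ebp3 and Eif4enif1 lacking a peak. Methyltransferases that modify eEF1A or eEF2 had peaks at 4 of 6 genes, beside 28.1% of protein-coding genes, namely Eef1akmt1, Eef1akmt2, Eef1akmt3 and Eef2kmt. The relative Eif1ad also had one. By contrast, Eif2b1, Eif2b3, Eif2b5, Eef1akmt4, Eef1aknmt, the read-through gene Eef1akmt4-ece2, Eif2c5 and Eif4a3l1 had none.

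**Figure D1:**
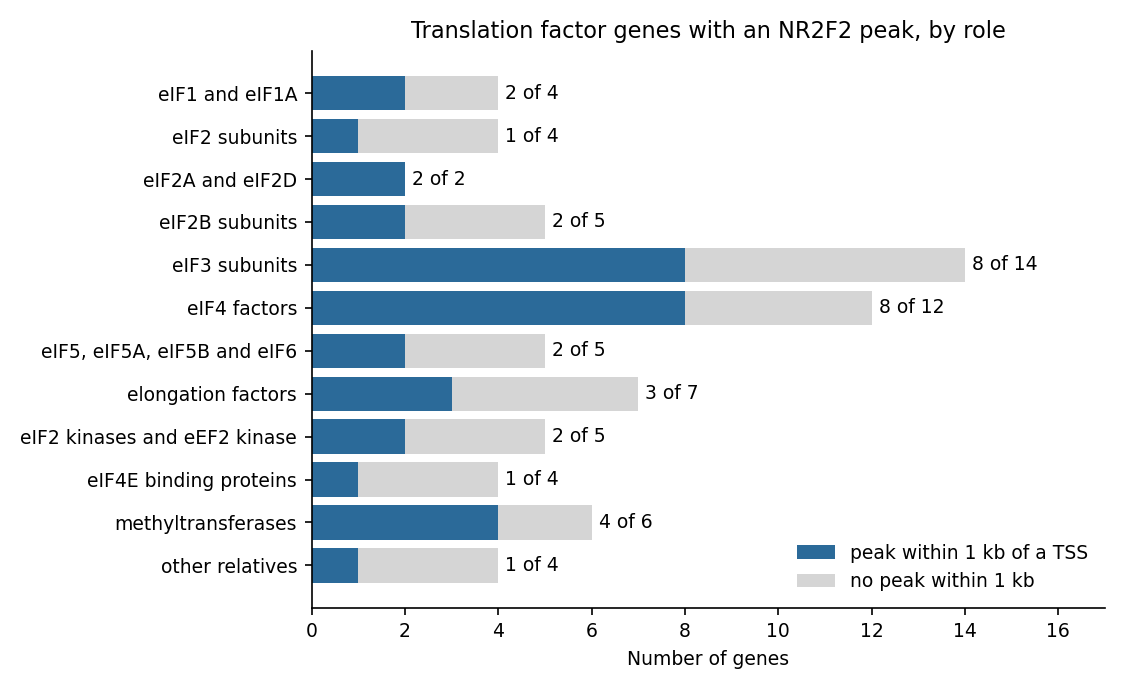
Number of translation factor genes with (blue) and without (grey) an NR2F2 peak within 1 kb of a TSS, by role. The eIF4 factors and the methyltransferases had the highest shares among groups of more than 2 genes, with 8 of 12 and 4 of 6 genes bound.

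Promoter composition differed between the translation factor genes and the others. The 300 bases from 250 before to 50 after the first TSS had a median GC content of 61.3% in the 71 protein-coding members and 56.7% in all protein-coding genes. Across all protein-coding genes the share with a peak was 6.91% in the quartile of lowest GC content, then 21.8%, 37.1% and 47.1%. The members had peaks at 0 of 6, 8 of 19, 13 of 22 and 15 of 24 genes in the same quartiles. With the protein-coding shares weighted to the members' distribution over quartiles, a share of 33.8% was obtained beside 50.7%. The share thus rose with GC content in both sets. The members' share stood above that of protein-coding genes in each of the 3 upper quartiles and below it in the lowest. Whether GC content or the level of expression of the members played a part in their share was not tested.

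**Figure D2:**
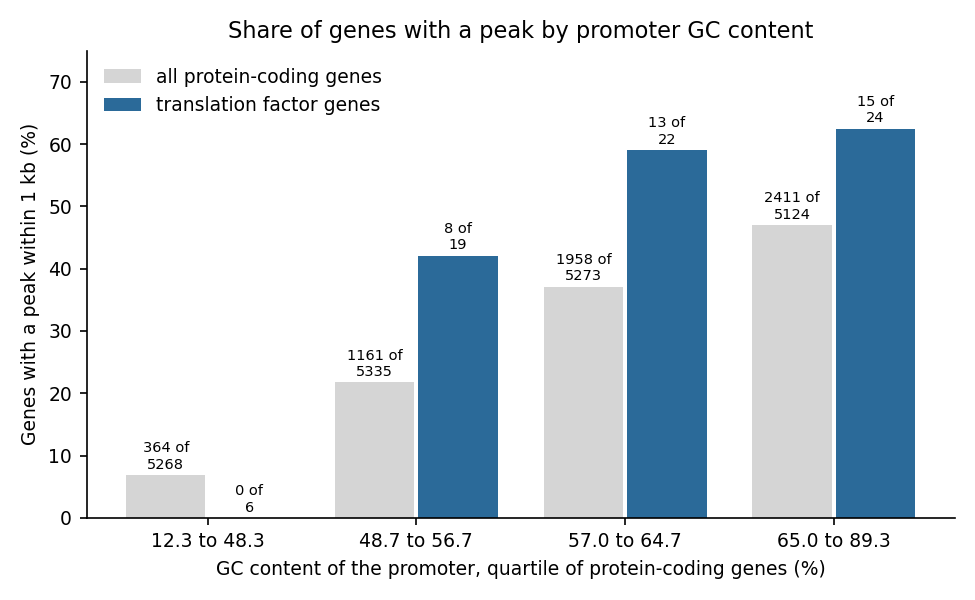
Share of genes with a peak within 1 kb of a TSS (%) in quartiles of promoter GC content (%), for all protein-coding genes (grey) and translation factor genes (blue), with the numbers of genes above the bars. Both rose with GC content, from 6.91% to 47.1% and from 0 of 6 to 15 of 24 genes.

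Genes that work beside these factors were examined in the same way. From a list of 49 other translation genes, 24 had a peak (49.0%). They include the release factor genes Etf1 and Gspt1, the poly(A)-binding protein gene Pabpc1, the helicase gene Ddx3x, and Dph5, an enzyme of the diphthamide modification of eEF2. At Gspt1 there were 10 reads in the input, and 107 and 82 in the ChIP replicates. At Dph5 the counts were 7, 91 and 71. Mtor, Rps6kb1, Atf4 and the hypusine enzymes Dhps and Dohh had no peak. Cytosolic ribosomal protein genes had peaks at 48 of 85 (56.5%) and proteasome genes at 17 of 49 (34.7%). Of 9 members whose mRNAs carry a terminal oligopyrimidine tract, the element through which mTOR controls translation of ribosomal proteins and their partners, 5 had a peak (55.6%, Eef1b2, Eef1d, Eef1g, Eif3e and Eif4b), beside 28.1% of protein-coding genes. When only peaks that overlap the TSS or lie upstream counted, 2 of the 9 remained (22.2%), beside 19.1%. The translation factor share thus lay between those of proteasome and ribosomal protein genes.

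Counts at the 36 peaks were above the input in both ChIP libraries, which is no separate evidence of binding. The peaks were called on these same ChIP libraries, and the raw counts are not scaled for their larger totals. The input counts ran from 3 to 15 with a median of 7, ChIP replicate 1 from 23 to 143 with a median of 47.5, and ChIP replicate 2 from 13 to 133 with a median of 37. For the 5654 peaks within 1 kb of a protein-coding TSS, which include these 36, the medians were 7, 40 and 33. The median ratio of ChIP to input counts, with 0.5 added to each, was 5.46 ± 0.552 (SD, n = 2 ChIP libraries) against 5.05 ± 0.664 for the protein-coding peaks. Within each replicate the translation factor peaks were higher, by 0.08 in ChIP replicate 1 and 0.15 in ChIP replicate 2 on the log2 scale (mean 0.11 ± 0.04, SD, n = 2). The difference had the same sign in both replicates, and 2 libraries that share 1 input allow no test of it. It was not particular to these genes. The median ratio was 5.57 at peaks of cytosolic ribosomal protein genes, 6.14 at those of the other translation genes and 3.93 at those of proteasome genes. At the 5 peaks of members with a terminal oligopyrimidine tract it was 4.80.

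Eef1b2, the nucleotide exchange subunit of eEF1, had the highest counts of the set. There were 8 reads in the input, 143 in ChIP replicate 1 and 133 in ChIP replicate 2, a mean of 138 ± 7.07 (SD, n = 2) that exceeded 99.4% of all peaks. The peak lies at chr1:63176824-63177123 and overlaps the TSS. It also lies within 1 kb of a TSS of Ndufs1, a subunit gene of respiratory complex I on the opposite strand, so it cannot be given to one of these genes alone.

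Next came Eif1, with 13 reads in the input, 79 in ChIP replicate 1 and 72 in ChIP replicate 2, from an intronic peak 260 bp past the TSS. Eif2b4 followed with 15, 90 and 58 reads, at a peak shared with Snx17. Both had inputs well above the median of 7, so their high ChIP counts came with ratios near the ordinary. Eif4a1, the helicase of the cap-binding complex, had 10 reads in the input and 61 and 82 in the ChIP replicates.

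Eif3a, the largest subunit of eIF3, had 7, 72 and 70 reads in the input and ChIP replicates 1 and 2, with its peak 35 bp upstream of the TSS. Eif1ad, whose peak is shared with Banf1, had 5, 74 and 68 reads. Eif4ebp1 had 6, 58 and 76 reads. The 3 peaks thus reached ChIP means of 71.0, 71.0 and 67.0 from input counts at or below the median.

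The cap-binding protein gene Eif4e had 10, 63 and 59 reads, at a peak over its TSS. Eif4b had 9, 65 and 57 reads. The scaffold genes had lower raw counts, with 9, 53 and 47 reads at Eif4g2 and 4, 33 and 25 reads at Eif4g1. Log2 ratios relative to the input come from the test described further on, with an SE derived from its statistic. They were 0.16 ± 0.52 (SE) at Eif4g2, 0.53 ± 0.73 at Eif4g1, 0.53 ± 0.47 at Eif4a1, 0.44 ± 0.50 at Eif4b and 0.29 ± 0.49 at Eif4e. All lay within their errors of each other.

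Both bound regulators of eIF2 and eEF2 gave moderate counts. Eef2k had 7 reads in the input and 42 and 38 in the ChIP replicates, and Eif2ak1 had 7, 35 and 30. Eef1g gave 7, 33 and 36 reads and Eif5 gave 5, 29 and 33, which is close to the medians of 7, 40 and 33 over peaks near protein-coding genes.

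The lowest ChIP means were at Eif3j1 with 7, 23 and 19 reads, Eif3e with 8, 32 and 13, Eif2d with 6, 24 and 21, and Eif2s3x with 5, 33 and 17. At Eif3e the replicates differed most in proportion, and its ChIP replicate 2 count was the lowest of the set. Over the 36 peaks the replicates ranked alike, with a Spearman correlation of 0.83 across peaks, which share the libraries and are not replicates. ChIP replicate 1 had more reads at 28 peaks and ChIP replicate 2 at 8.

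**Figure D3:**
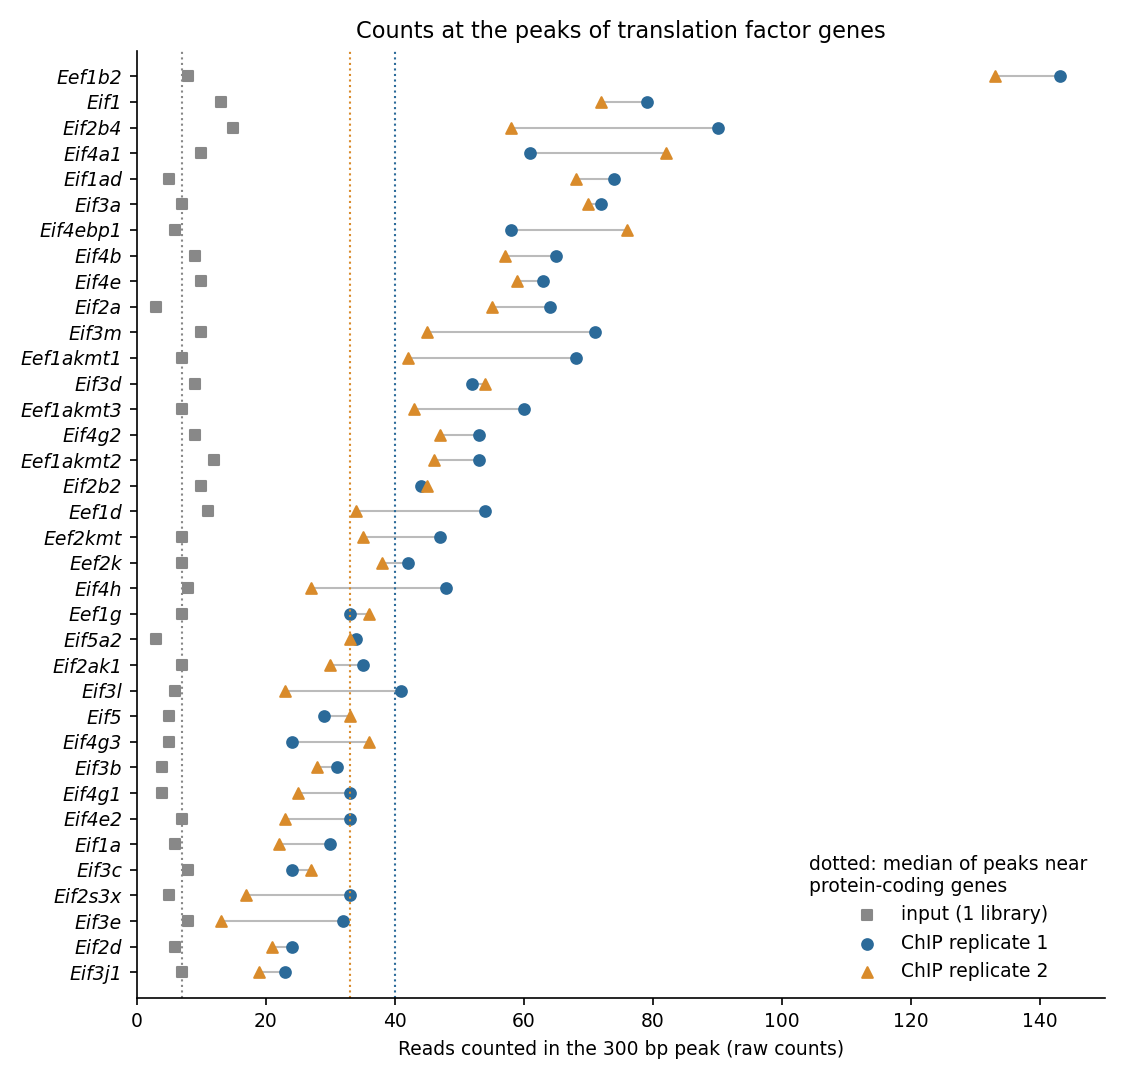
Reads counted in each 300 bp peak (x axis, raw counts) at the 36 peaks of translation factor genes, in order of mean ChIP count, for the input (grey squares), ChIP replicate 1 (blue circles) and ChIP replicate 2 (orange triangles), with dotted lines at each library's median over peaks near protein-coding genes. At every peak both ChIP counts exceeded the input, but the peaks were called on these ChIP libraries, whose totals are also larger. Eef1b2 with 143 and 133 reads stood apart from the next gene, Eif1, with 79 and 72.

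To account for the input at each peak, ChIP was compared with input by the quasi-likelihood test of edgeR on all 10069 peaks, after scaling so that the typical peak has a log2 ratio near 0. A positive value therefore means more enrichment than at the typical peak, not binding as such. The test called 154 peaks above (1.53%) and 5 below (0.0497%) at an adjusted p under 0.05. Of the translation factor peaks 1 was called above and none below, with 4 of 36 (11.1%) at an unadjusted p under 0.05, all of them above, beside 10.4% of all peaks in either direction. DESeq2 called none of the 36 in either direction, but it gave no adjusted p for 33 of them. The median of their log2 ratios was 0.22, beside 0.11 for peaks near protein-coding genes and 0.02 for all peaks, and 22 were positive and 14 negative. Members are not replicates, so the medians were not compared by a test.

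The called peak was that of Eef1b2, at a log2 ratio of 1.79 ± 0.42 (SE derived from the test statistic) and an edgeR adjusted p of 0.00339. For the same peak DESeq2 gave a log2 ratio of 1.77 with a larger SE of 0.71. The adjusted p from edgeR with the size factors of DESeq2 was 0.0923 and that from DESeq2 itself was 0.142, so the call depends on the method. The ratio was 1.71 or more when either ChIP replicate was left out, with the same input reads kept.

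Eif2a had the highest ratio, 1.98 ± 0.69, from 3, 64 and 55 reads, but its edgeR adjusted p was 0.142 and its peak is shared with Serp1. Eif1ad stood at 1.51 ± 0.58 (edgeR adjusted p = 0.223), Eif4ebp1 at 1.17 ± 0.56 (0.421) and Eif5a2, from 3, 34 and 33 reads, at 1.16 ± 0.77 (0.673). The input counts at these 4 peaks were 3 to 6, and none of the 4 passed the test. Of the 5 highest ratios, the 3 at Eif2a, Eef1b2 and Eif1ad belong to peaks shared with a second protein-coding gene.

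At the other end, Eif3e had -0.83 ± 0.62 (edgeR adjusted p = 0.732), Eif3j1 -0.73 ± 0.66 (0.817) and Eif3c, from 8, 24 and 27 reads, -0.64 ± 0.60 (0.827). Eif2d had -0.41 ± 0.68 (0.922) and Eef1d, from 11, 54 and 34 reads, -0.32 ± 0.50 (0.918). None of these passed the test. The value at Eif3e was -1.45 without ChIP replicate 1 and -0.42 without ChIP replicate 2. Among other subunits of eIF3, the ratio was 1.02 ± 0.52 at Eif3a (edgeR adjusted p = 0.486) and 0.56 ± 0.72 at Eif3b (0.897), the latter from 4, 31 and 28 reads.

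**Figure D4:**
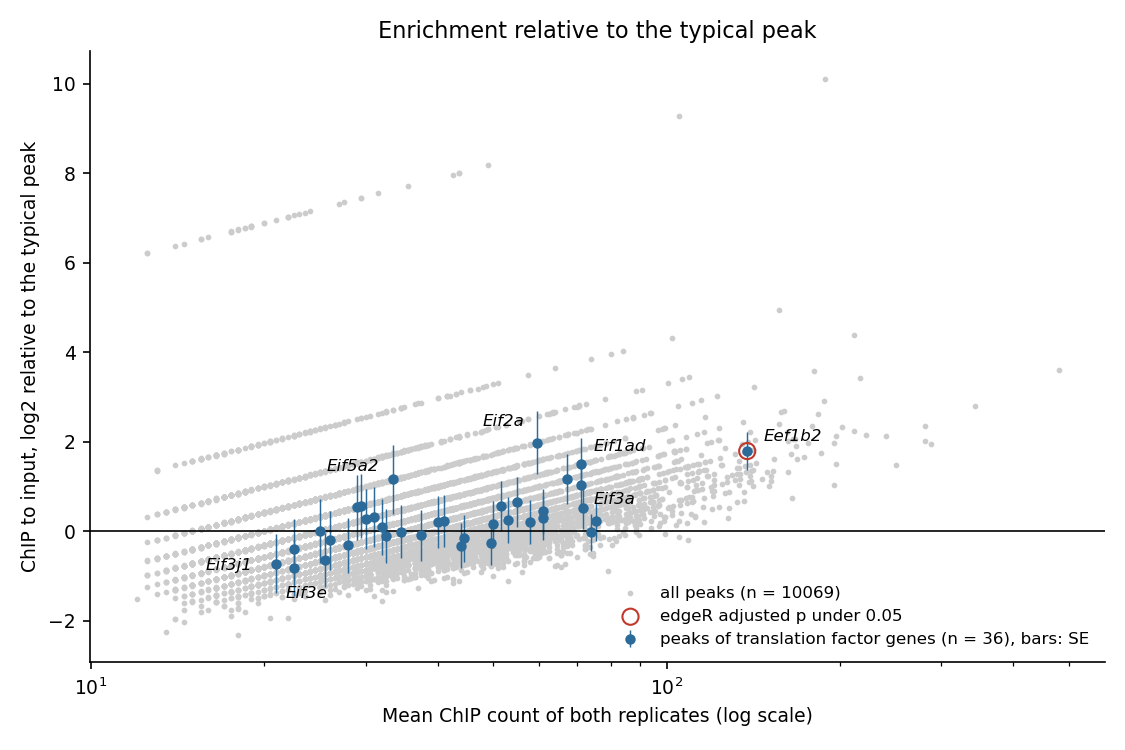
Log2 ratio of ChIP to input relative to the typical peak (y axis) against the mean ChIP count of both replicates (x axis, log scale) for all peaks (grey) and the 36 peaks of translation factor genes (blue, bars are the SE derived from the test statistic), with a red ring at an edgeR adjusted p under 0.05. Only Eef1b2 (1.79) carries a ring, although Eif2a (1.98) lies higher. Grey rows follow whole input counts, and the uppermost is of peaks with an input count of 0.

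All peaks compared here were chosen for lying within 1 kb of a TSS, so only their place inside that window is described. Of the 36, 17 overlapped it (47.2%), 9 lay upstream (25%) and 10 downstream (27.8%), beside 40.7%, 21.1% and 38.2% of the 5654 peaks near protein-coding genes. Midpoints ranged from -692 bp at Eef1akmt3 to 800 bp at Eif5, with a median of 43.5 bp downstream, beside 92 bp for the larger set. The midpoint fell outside the transcribed region of the gene for 15 peaks, in an untranslated leader for 8, in an intron for 7 and in a coding exon for 6. No test was made of these positions.

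At 7 peaks (19.4%) a second protein-coding gene had its TSS within 1 kb, beside 10.9% of peaks near protein-coding genes. These pairs were Eef1b2 with Ndufs1, Eif2b4 with Snx17, Eif1ad with Banf1, Eif2a with Serp1, Eef1akmt3 with Mettl1, Eef1d with Tigd5 and Eif1a with Tmed7. Without them the median ratio of ChIP to input counts was 5.35 over 29 peaks.

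**Figure D5:**
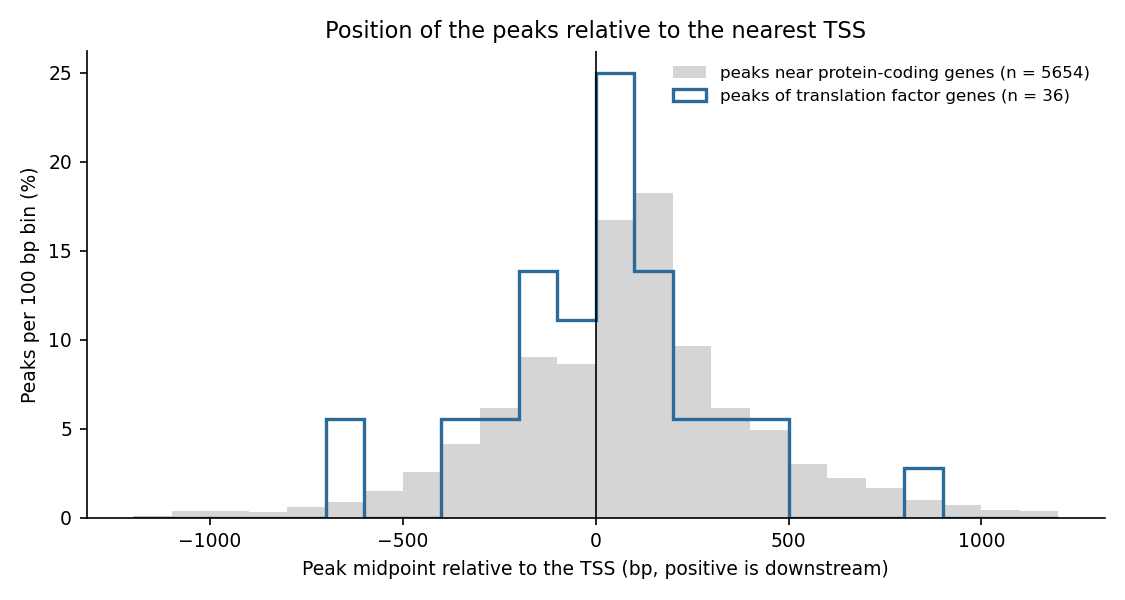
Position of peak midpoints relative to the nearest TSS (x axis, bp, positive is downstream) as percent of peaks per 100 bp bin, for the 36 peaks of translation factor genes (blue line) and 5654 peaks near protein-coding genes (grey). Both sets were chosen within 1 kb of a TSS, and their medians were 43.5 and 92 bp.

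The motifs printed above were then counted, on both strands and over whole peaks. AGGTCA was in 7 of the 36 peaks (19.4%), beside 25.4% of peaks near protein-coding genes and 13.9% of all promoters of the same length. GGGTCA was in 9 (25%), beside 29.1% of those peaks and 13.5% of promoters. Either was in 15 (41.7%), beside 47.8% of peaks and 25.3% of promoters. The longer forms AGAGGTCA and AGGGGTCA, which contain the shorter ones, were in 1 peak (Eif2b2, 2.78%), beside 6.07% of peaks and 2.0% of promoters. Over whole peaks, each of these shares was thus below that of peaks near protein-coding genes. These differences rest on few peaks and were not tested.

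Copies of AGGTCA in the same direction and 1 base apart were also counted, with G in the first place of a copy accepted as a match. No peak of the set held 2 such copies without mismatch, beside 0.884% of peaks near protein-coding genes. With at most 1 mismatch there was 1 (2.78%), the Eef1b2 stretch shown first, beside 4.0%. That stretch lies 226 bp past the TSS of Eef1b2 and 83 bp from the centre of its peak. At most 2 mismatches gave 6 peaks (16.7%) beside 18.3%.

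CCGGAAG was in 13 peaks (36.1%), beside 16.1% of peaks near protein-coding genes and 12% of promoters. In the central 100 bp it was in 6 (16.7%), at Eif1, Eif1a, Eif3e, Eif3j1, Eif4e2 and Eif5a2, beside 4.90%. AGGTCA was there in 1 (2.78%), at Eif2s3x, beside 10.9%, GGGTCA in 5 (13.9%) beside 12.5%, and either of them in 6 (16.7%) beside 22.1%. At Eif4e2 the motif stood 2 bp from the centre of the peak and 5 bp past the TSS. In the Eif3m peak GGGTCA and CCGGAAG overlap on opposite strands, so the same bases are counted for both.

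The GC box GGGCGG was in 26 peaks (72.2%), beside 57.9% of peaks near protein-coding genes and 47.9% of promoters. The E-box CACGTG was in 7 (19.4%), beside 11.0% and 8.07%, and CCAAT in 6 (16.7%), beside 24.4% and 38.9%. The YY1 letters AAGATGGC and the NRF1 letters GCATGCGC were in 1 peak each (2.78%), at Eif2a and Eef1akmt1, beside 4.67% and 3.29% of peaks and 3.24% and 3.58% of promoters. The share with CCGGAAG was thus the one that stood farthest, in proportion, above that of peaks near protein-coding genes. Median GC content was 65.7% over the 36 peaks and 65.3% over the larger set. The median number of CpG dinucleotides, one of which lies in CCGGAAG, was 28.5 and 25, and the part of composition in this share was not tested. These matches describe letters, and no binding by ETS or other factors was measured.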

How the data were processed

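The deposited files held raw counts of reads per peak, which the authors made for each of 3 libraries. Per the study's methods, the authors trimmed reads (Trim Galore 0.6.7) and aligned them locally to mm10 by Bowtie 2. Poorly mapped reads and duplicates (Picard 1.110) were then removed. The ChIP replicates were merged before peaks were called with HOMER 4.11.1, resized to 300 bp and cleared of blacklisted regions, so both replicates share 1 peak list. How reads were assigned to peaks, and total library depths, are not given in the sources used here.

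Start sites came from the curated transcripts (45756) of RefSeq on GRCm38.p6, the assembly of mm10, and all sequences were read from that RefSeq genome with pysam 0.24.0. The promoter window ran from 250 bases before to 50 after the first TSS, and ratios used a pseudocount of 0.5. Counts were fitted over all 10069 peaks with edgeR 4.0.16 (glmQLFit and glmQLFTest, TMM factors on the counts at peaks, ChIP against input), with Benjamini-Hochberg adjustment over all peaks and a threshold of 0.05. Because scaling uses the counts at peaks, it sets the typical peak to about 0. The spread is that of 2 ChIP libraries with 1 input, and counts of a single input carry counting error only. Each SE of an edgeR log2 ratio is the size of the ratio divided by the square root of the F statistic. It is not a fitted standard error and can understate the uncertainty. On simulated counts for this comparison with 10069 peaks, the test found 75 of the 100 peaks set 4-fold higher, but 30 of the 100 set 4-fold lower, and made 5 false calls. DESeq2 1.42.0 and other settings were alternatives.

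The members and the lists were chosen with earlier results of these data known. Counts are given in each library for peaks with an adjusted p under 0.05, the 8 highest and 4 lowest by mean ChIP count (with ties), the 5 highest and 5 lowest by log2 ratio, and a list of textbook factors. Values of Gspt1 and Dph5, the highest of the other translation genes, were chosen after their values were seen. Groups and ChIP replicate numbers came from the sample labels.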

Additional observations from a re-analysis of the deposited data

How the results depend on the processing

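The share of translation factor genes with a peak was 36.1% when only peaks that overlap the TSS or lie upstream counted, beside 19.1% of protein-coding genes. Other definitions gave 45.8% to 52.8%. For protein-coding genes the share was 26.4% at 500 bp, 30.7% at 5 kb, 26.1% for genes with 1 distinct TSS, 28.8% without X and Y and 33.8% weighted to the members' GC quartiles. The weighting, the removal of protein-coding genes near by and the same settings for protein-coding genes were chosen after seeing the data. Of the 36 peaks, 1 was called above the typical peak by edgeR (robust fitting gave identical values and so tests nothing), 0 with DESeq2's size factors, 0 by DESeq2 (which gave no adjusted p for 33 of the 36), and 0 with at least 10 input counts, where 8 remained and Eef1b2 with 8 input reads was removed. None was called below in any setting. Without normalisation beyond the totals the median of all peaks moved by -0.11 on the log2 scale, and the uncalled ratio of Eif3l became -0.024. With at least 10 input counts the uncalled ratios of Eef1akmt2, Eif2b2 and Eif2b4 became 0.047, 0.16 and 0.30. The cause was not tested. With a pseudocount of 5 the ratio of ChIP to input was 3.80. Without ChIP replicate 1 or replicate 2 it ranged from 5.07 to 5.85, and the log2 difference from peaks near protein-coding genes from 0.08 to 0.15. Those fits keep the same input library and allow no test. They put all 36 log2 ratios within 1 SE of the value from both replicates, but the error of the input is shared, so close values were likely. At 7 of the 36 the sign differed between the fits, as at Eif2s3x and Eif4g3. In the central 100 bp AGGTCA was in 2.78% of the peaks, GGGTCA in 13.9%, CCGGAAG in 16.7% and GGGCGG in 27.8%. No paired analysis was possible because the input carries no replicate number. With input counts of 3 to 15 per peak, ratios of single peaks are imprecise.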
